A study of Mus musculus with 6 samples.

Results

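Macrophages and other leukocytes of the fetal vessel were followed through 10 transcripts taken by name, *Ptprc*, *Csf1r*, *Cd68*, *Cx3cr1*, *Mrc1*, *Lyz2*, *C1qa*, *C1qb*, *C1qc*, and *Tyrobp*. All 10 were among the 23997 genes of the deposited table, and all 10 were among the 12955 genes whose mean FPKM over the libraries was at least 1 and which were tested. Levels are given as FPKM, the fragments assigned to a gene relative to the length of its transcript and to all mapped fragments. The RNA was sequenced in bulk from the ductus arteriosus (DA), the fetal artery between the pulmonary artery and the aorta, of C57BL/6 embryos at E17.5. Of the 6 libraries, 3 were labelled wild type (WT 0, WT 1, and WT 2) and 3 came from *Prdm6f/f; SM22-Cre* embryos (KO 0, KO 1, and KO 2). The KO embryos carry 2 floxed alleles of *Prdm6*, which encodes a histone methyltransferase, and a transgene that makes Cre-recombinase in smooth muscle cells (SMCs). Cre activity in leukocytes was not measured here, and no other allele or treatment is given for either group. How many embryos went into each library is not given in the sources used here, so p values measure the spread between these libraries.

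Tissue macrophages of the fetus descend from yolk sac and fetal liver progenitors, settle in vessel walls and connective tissue, and clear dying cells and debris. Their survival depends on the receptor encoded by *Csf1r*. They take up glycoproteins through the mannose receptor (*Mrc1*), make the 3 chains of complement C1q, which tags material for removal, and digest what they take up in lysosomes. *Ptprc* encodes CD45, the phosphatase carried by nearly all leukocytes.

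The libraries differed in ways that bear on these transcripts. Relative to WT 1, the depth that low FPKM values imply through their step size was between 0.933 and 1.19, and the upper quartile of FPKM was between 10.4 and 10.8. Total depth is unknown, and no counting interval was computed. Of the tested genes, 1457 were listed at 0 in WT 2, against 131 to 538 in each other library. Abundant genes (mean FPKM 20 or more) were listed at 0 in every library too (34 to 61 of 3506), so that an exact 0 can be a failed estimate. The targeted gene *Prdm6* was at 41.7, 48.4, and 19.8 FPKM in the WT libraries and at 48.6, 27.1, and 15.4 FPKM in the KO libraries. These ranges overlap, and all directions below rest on the deposited labels. The ribosomal RNA precursor *Rn45s* was listed at 0 in all WT libraries and was at 3060, 3806, and 4520 FPKM in the KO libraries, a difference that runs with the groups and whose part in other results was not tested. KO 0 held both *Xist* (81.0 FPKM), made from the inactive X chromosome, and the Y chromosome transcript *Ddx3y* (26.4 FPKM). All 10 smooth muscle genes listed for the check of the tissue were expressed in every library, with a summed FPKM of 3284 to 6863 in WT and 1188 to 3243 in KO libraries.

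Promoter windows of RefSeq (build GRCm38.p6, 250 bases before to 50 bases after a start site) were at hand for 7 of the 10 genes, and *Csf1r*, *C1qa*, and *Tyrobp* had none. Macrophage genes are commonly bound by PU.1, an ETS family factor encoded by *Spi1*, whose sites hold the letters GGAA. A search for AGGAAGT, or its reverse complement ACTTCCT, on either strand found a match in 5 of the 7 genes (*Ptprc*, *Mrc1*, *Lyz2*, *C1qb*, and *C1qc*) and none in *Cd68* and *Cx3cr1*. The motif was chosen after these sequences had been seen. Of all 32851 windows of the same length, 9.35% held it, as did 10.7% of the 27025 genes in any of their windows. A match is a stretch of letters and not a measured binding site. The 4 sequences below belong to the genes with the highest mean FPKM among the matches. They are printed 5′ to 3′ up to the first annotated exon or, for *C1qb*, up to the start site of the window, with the match in capitals.
*C1qb* (chr4:136886201-136886450, minus strand): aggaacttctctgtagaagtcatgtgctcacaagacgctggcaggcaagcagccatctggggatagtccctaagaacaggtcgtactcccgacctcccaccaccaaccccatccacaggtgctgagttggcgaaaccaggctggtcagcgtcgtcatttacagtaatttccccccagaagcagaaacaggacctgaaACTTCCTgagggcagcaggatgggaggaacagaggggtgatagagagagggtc
*C1qc* (chr4:136893066-136893164, minus strand): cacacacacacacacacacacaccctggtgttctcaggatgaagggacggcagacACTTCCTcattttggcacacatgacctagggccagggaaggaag
*Lyz2* (chr10:117282322-117282522, minus strand): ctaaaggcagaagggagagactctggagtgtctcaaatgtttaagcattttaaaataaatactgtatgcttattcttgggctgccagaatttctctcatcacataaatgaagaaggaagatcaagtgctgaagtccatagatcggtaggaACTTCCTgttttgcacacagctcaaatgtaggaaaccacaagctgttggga
*Mrc1* (chr2:14229164-14229391, plus strand): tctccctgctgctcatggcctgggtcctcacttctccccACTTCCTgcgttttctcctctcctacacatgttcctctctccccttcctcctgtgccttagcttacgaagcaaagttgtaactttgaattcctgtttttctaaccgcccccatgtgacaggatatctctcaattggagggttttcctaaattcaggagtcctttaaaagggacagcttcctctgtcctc

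By mean FPKM over the 6 libraries, the order of the transcripts was *Lyz2* (75.2), *Mrc1* (24.2), *C1qb* (21.6), *C1qc* (11.2), *Csf1r* (9.92), *C1qa* (9.53), *Cx3cr1* (6.38), *Tyrobp* (5.59), *Cd68* (3.96), and *Ptprc* (2.34). *Lyz2* stood at the 94.2nd percentile of the tested genes and *Ptprc* at the 12.5th. No pair of neighbours in this order differed beyond the spread over the libraries (two-sided exact permutation test with sign flips over 6 libraries, p from 0.0938 to 0.844, adjusted p from 0.375 to 0.844 over 9 pairs). The step from *Lyz2* to *Mrc1* was in the same direction in 5 of 6 libraries, and the step from *Csf1r* to *C1qa* in 4 of 6.

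Of the receptors, *Csf1r* (chromosome 18) encodes the receptor for CSF1 and IL-34 and marks macrophages and their precursors. Its FPKM was 4.16, 9.93, and 10.8 in WT 0, WT 1, and WT 2 and 5.87, 17.4, and 11.4 in KO 0, KO 1, and KO 2. The lowest library of each group was the one numbered 0, and the groups overlapped. The log2 fold change, KO relative to WT on the log2(FPKM + 0.1) scale, was 0.45 (SE 0.52, 95% interval -0.76 to 1.67, adjusted p = 0.790 from limma). An exon of *Hmgxb3*, on the opposite strand, overlaps an exon of *Csf1r*, and whether the libraries keep strand is not given in the sources used here.

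*Cx3cr1* (chromosome 9, 119901616 to 120069879) encodes the fractalkine receptor of monocytes and resident macrophages. Its FPKM was 2.79, 6.95, and 12.5 in the WT libraries and 3.35, 4.37, and 8.33 in the KO libraries. The libraries numbered 0 were again the lowest of their groups, and the log2 fold change was -0.33 (SE 0.62, 95% interval -1.77 to 1.12, adjusted p = 0.874 from limma). An exon of the antisense gene *Gm33858* overlaps it. *Mrc1* (chromosome 2, 14229392 to 14332057) was at 13.8, 28.2, and 25.9 FPKM in WT and at 7.63, 37.1, and 32.5 FPKM in KO libraries, 22.6 ± 7.76 against 25.7 ± 15.8 (SD, n = 3 in each group). Its log2 fold change was the nearest to 0 of the 10, at -0.04 (SE 0.60, 95% interval -1.44 to 1.36, adjusted p = 0.984 from limma). These intervals hold 2-fold changes in either direction, so equal levels were not shown.

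**Figure D1:**
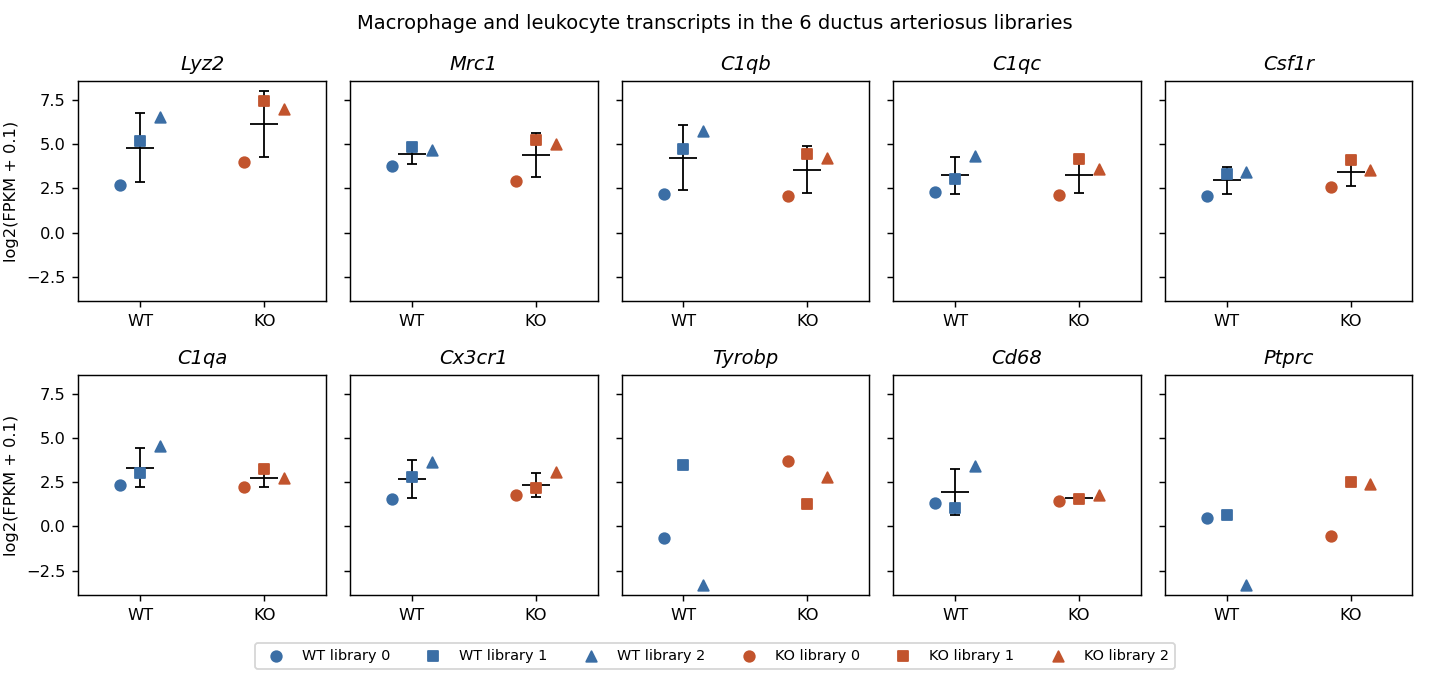
Levels of the 10 transcripts, on a y axis of log2(FPKM + 0.1), in the WT (blue) and KO (orange) libraries, where the marker shape gives the library number, the horizontal bar the mean, and the error bar 1 SD over 3 libraries (not drawn for *Ptprc* and *Tyrobp*, listed at 0 in WT 2). In most panels the circles, libraries 0 of each group, lie lowest, and for no transcript do the groups separate.

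The 3 genes of complement C1q lie side by side on chromosome 4 in the same orientation, *C1qb* (136880129 to 136886187), *C1qc* (136889804 to 136893065), and *C1qa* (136895917 to 136898803), with 3616 and 2851 bases between them. Their chains join in equal numbers in the C1q protein. *C1qa* was at 5.06, 8.18, and 23.3 FPKM in WT and at 4.53, 9.58, and 6.51 FPKM in KO libraries. *C1qb* was at 4.43, 27.0, and 54.0 FPKM in WT and 4.04, 21.6, and 18.7 FPKM in KO libraries. *C1qc* was at 4.88, 8.09, and 20.3 FPKM in WT and 4.24, 17.8, and 11.9 FPKM in KO libraries. All 3 chains were lowest in KO 0 and highest in WT 2, and WT 0 was the next lowest for each.

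The chains did not keep one ratio. FPKM of *C1qb* relative to *C1qa* was 0.876 in WT 0 and 0.892 in KO 0, and between 2.25 and 3.30 in the other 4 libraries. FPKM of *C1qc* relative to *C1qa* was 0.966, 0.988, and 0.871 in the WT libraries and 0.937, 1.86, and 1.83 in the KO libraries. This last ratio was thus near 1 in all WT libraries and in KO 0, and the groups overlapped (mean log2 difference 0.65, two-sided exact permutation test, p = 0.3; 3 libraries against 3 cannot give a p under 0.1). The log2 fold change was -0.59 for *C1qa* (SE 0.59), -0.66 for *C1qb* (SE 0.97), and 0.05 for *C1qc* (SE 0.67), with adjusted p of 0.760, 0.833, and 0.983 from limma.

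**Figure D2:**
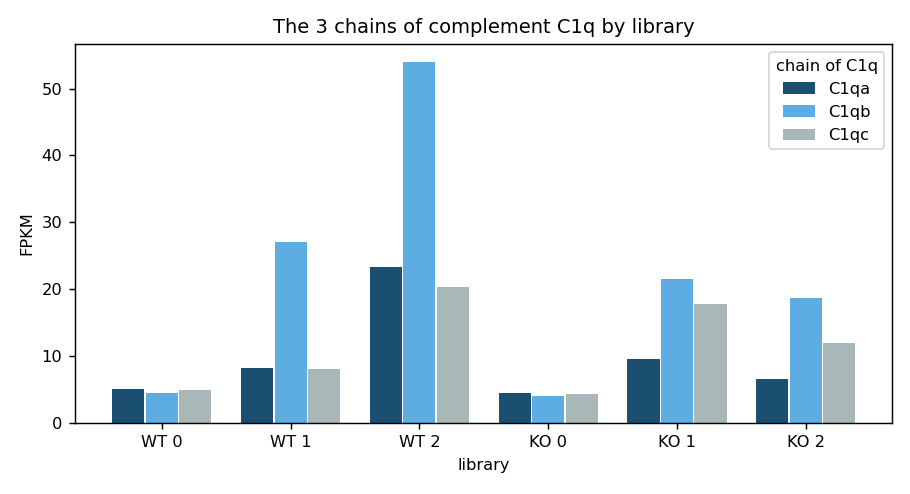
FPKM (y axis, from 0) of *C1qa*, *C1qb*, and *C1qc* in each of the 6 libraries (x axis), 1 bar for each gene and library, with no error bars. The 3 bars are of like height in WT 0 and KO 0, and the bar of *C1qb* is the tallest in the other 4 libraries.

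*Lyz2* (chromosome 10, 117277331 to 117282321) encodes lysozyme M, a bacteria-degrading enzyme of macrophages and granulocytes. It was at 6.43, 36.2, and 92.3 FPKM in WT and at 15.7, 174, and 127 FPKM in KO libraries. Within each group the level spanned more than the difference between the groups, 14.3-fold in WT and 11.04-fold in KO libraries. The log2 fold change was 1.33 (SE 1.14, 95% interval -1.31 to 3.97, adjusted p = 0.730 from limma). *Lyz1*, the neighbouring near-identical copy with which it can share reads, was at or below 1.49 FPKM in every library. *Cd68* (chromosome 11, 69664213 to 69666153) encodes a lysosomal membrane glycoprotein of macrophages. It was at 2.45, 1.94, and 10.6 FPKM in WT and at 2.59, 2.79, and 3.36 FPKM in KO libraries, so that WT 2 alone set the WT mean above the KO mean. Its log2 fold change was -0.35 (SE 0.71, 95% interval -2.00 to 1.30, adjusted p = 0.879 from limma).

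*Ptprc* (chromosome 1, 138062861 to 138175708) was at 1.30, 1.48, and 0 FPKM in WT and at 0.577, 5.58, and 5.12 FPKM in KO libraries. *Tyrobp* (chromosome 7, 30413760 to 30417585) encodes DAP12, the adaptor that carries the signal of several myeloid receptors. It was at 0.543, 10.9, and 0 FPKM in WT and at 12.98, 2.27, and 6.91 FPKM in KO libraries. *Ptprc* reached the filter only through the KO mean. Both were listed at 0 in WT 2, the library with the highest FPKM of *Cd68*, *Cx3cr1*, and the C1q genes and with the most zeros overall. Their log2 fold changes, 2.17 (SE 1.44, adjusted p = 0.687 from limma) and 2.76 (SE 1.62, adjusted p = 0.666), were the largest of the 10 and became 0.87 and 1.18 with exact zeros taken as missing, which leaves 2 WT libraries for each gene. *Tyrobp* also departed from the order of the libraries, since KO 0 held its highest level. *Cd68*, lowest in WT 1, and *Ptprc*, lowest in WT 2, departed from it as well.

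The within-group SD was above the size of the log2 fold change for 8 of these 10 transcripts. The share of all tested genes for which this holds was not computed, so the count does not set the 10 apart. WT 0 was 1 of the 2 lowest libraries for 9 of the 10 genes and KO 0 for 8 of the 10. The summed FPKM of the 10 genes was 45.8, 139, and 250 in the WT libraries and 61.5, 292, and 231 in the KO libraries. It thus spanned 5.45-fold within WT and 4.75-fold within KO libraries, with means of 145 ± 102 and 195 ± 120 (SD, n = 3 in each group). The median deviation of the 10 genes from their own means was -0.96, 0.22, and 1.07 on the log2 scale in WT and -0.87, 0.67, and 0.45 in KO libraries. The SD of log2(FPKM + 0.1) within groups had a median of 1.01 over the 10 genes, against 0.50 over all tested genes, and lay above the latter for each of the 10. In bulk tissue, fewer leukocytes and less of these RNAs per leukocyte cannot be told apart.

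None of the 10 transcripts passed the test between the groups. Of all tested genes, 1 (0.00772%), *Rn45s* with its zeros in all WT libraries, passed an adjusted p of 0.05 in limma, and 0 of the 10 did. At an unadjusted p under 0.05 the count was 0 of the 10, both in limma and in the fit without moderation, where 8.28% of all tested genes passed in limma (3.31% higher and 4.97% lower in KO libraries). The values of one group lay wholly beyond those of the other for 16.1% of all tested genes (8.21% with KO above and 7.84% with KO below WT) and for 0 of the 10. Of the 10 genes, 5 had a positive and 5 a negative log2 fold change, with a median of 0.01, beside a median of 0.07 over all tested genes. The range ran from -0.66 for *C1qb* to 2.76 for *Tyrobp*. The direction turned on single libraries. Without WT 2 all 10 log2 fold changes were positive (median 0.50), without KO 0, which carries both *Xist* and *Ddx3y*, 7 of 10 were (median 0.66), and without WT 0, KO 1, or KO 2, 4 of 10 were (medians -0.38, -0.28, and -0.22).

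**Figure D3:**
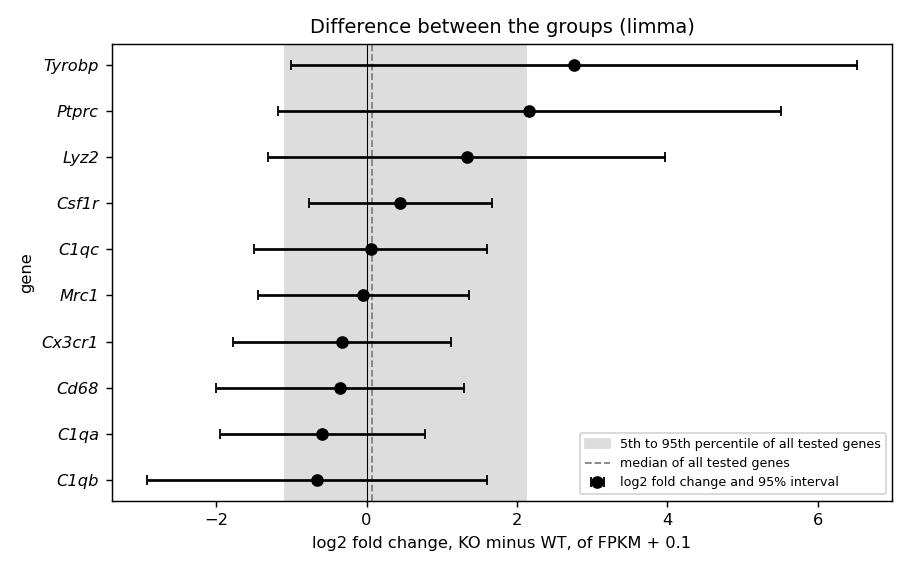
Log2 fold change of FPKM + 0.1 (x axis, KO minus WT) of each of the 10 transcripts (y axis) from limma, with points for the estimate and bars for the 95% interval. The grey band covers the 5th to 95th percentile of all tested genes (-1.08 to 2.12), the dashed line their median, and every bar crosses 0.

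Further macrophage genes had their lowest scores in the same libraries, at -0.58 in WT 0 and -0.51 in KO 0. Of 22 listed, 13 were tested, 6 were higher and 7 lower in KO libraries with a median log2 fold change of -0.03, and 0 passed the adjusted threshold. *Adgre1*, a surface receptor widely used as a macrophage marker, which stands in the table under its older symbol, was at 1.93, 3.77, and 10.03 FPKM in WT and at 2.62, 4.36, and 2.28 FPKM in KO libraries. *Lyve1*, a hyaluronan receptor of perivascular macrophages and lymphatic endothelium, was at 8.40, 27.2, and 54.4 FPKM in WT and 7.06, 59.2, and 42.7 FPKM in KO libraries. *F13a1*, the coagulation factor XIII chain made by resident macrophages, was at 19.2, 31.7, and 81.8 FPKM in WT and 10.4, 43.7, and 24.5 FPKM in KO libraries. *Lyve1* and *F13a1* were again lowest in WT 0 and KO 0. *Cbr2*, a carbonyl reductase, was highest in WT 0, at 33.2, 10.6, and 8.03 FPKM in WT and 8.54, 5.05, and 2.505 FPKM in KO libraries, with a log2 fold change of -1.55 (SE 0.64, unadjusted p = 0.0431, adjusted p = 0.591 from limma). *Folr2*, a folate receptor of resident macrophages, was at 5.54, 1.45, and 0 FPKM in WT and 0, 5.23, and 0.0836 FPKM in KO libraries. *Mertk*, a receptor for the uptake of dying cells, was at 6.00, 4.72, and 11.96 FPKM in WT and 7.81, 9.04, and 5.09 FPKM in KO libraries. These 3 genes did not have their lowest levels in WT 0 and KO 0 together.

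The ligands and lineage factors of these cells did not pass the adjusted threshold either. Among 19 genes of the growth factor and chemokine axis, 11 were tested, with 6 higher and 5 lower in KO libraries. *Csf1*, which encodes the ligand of the *Csf1r* product, was at 9.21, 14.0, and 19.8 FPKM in WT and at 7.15, 11.3, and 13.1 FPKM in KO libraries, and *Il34*, the other ligand, was at or below 0.199 FPKM. *Cx3cl1*, the ligand of the *Cx3cr1* product, was at 1.99, 1.45, and 3.34 FPKM in WT and 0.409, 1.84, and 0.692 FPKM in KO libraries. *Csf1* was thus well above *Il34*, and neither *Csf1* nor *Cx3cl1* separated the groups. Of 10 myeloid transcription factors, 7 were higher and 3 lower in KO libraries (median log2 fold change 0.49). *Spi1*, which encodes PU.1, was at 1.07, 3.42, and 8.64 FPKM in WT libraries. It was listed at 0 in KO 0 and KO 1, and was at 3.47 FPKM in KO 2 (log2 fold change -3.33, SE 1.66, unadjusted p = 0.0822, adjusted p = 0.625 from limma). This value rests on the zeros of KO 0 and KO 1, which can be failed estimates, and the groups overlapped.

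Over the tested partners of the signalling and complement members, the list scores were again lowest in WT 0 and KO 0. They were -2.02 and -0.55 for signalling genes and -0.94 and -0.58 for complement genes. Of 18 genes of ITAM and leukocyte kinase or phosphatase signalling, 9 were tested and 7 were higher in KO libraries (median log2 fold change 0.63), with 0 past the adjusted threshold. *Fcer1g*, the Fc receptor chain that acts beside DAP12, was listed at 0 in WT 0 and KO 0 and was at 6.95 and 18.3 FPKM in the other WT and at 5.42 and 4.68 FPKM in the other KO libraries. Unlike *Fcer1g*, *Tyrobp* was highest in KO 0 (12.98 FPKM) and listed at 0 in WT 2. Of 22 other complement genes, 15 were tested and 10 were higher in KO libraries (median 0.71), with 0 past the adjusted threshold. *C3*, the central component, was at 1.15, 4.37, and 43.0 FPKM in WT and at 2.47, 25.5, and 16.4 FPKM in KO libraries. *Itgam*, a chain of complement receptor 3, was at 0.0164, 3.28, and 4.55 FPKM in WT and 1.53, 5.11, and 3.26 FPKM in KO libraries. Both were lowest in WT 0 and next lowest in KO 0. Other genes of these lists differed, with *Syk* lowest in WT 2 (1.17 FPKM) and *Clu* highest in KO 0 (45.2 FPKM). Lysosomal genes, which all cells express, varied less. Their score lay between -0.26 and 0.14 in all 6 libraries, and it too was lowest in WT 0 (-0.26) and KO 0 (-0.10). In KO libraries 9 of 18 were higher, and *Lamp2*, a lysosomal membrane protein, was higher in every KO than in every WT library (log2 fold change 0.51, SE 0.18, adjusted p = 0.552 from limma).

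**Figure D4:**
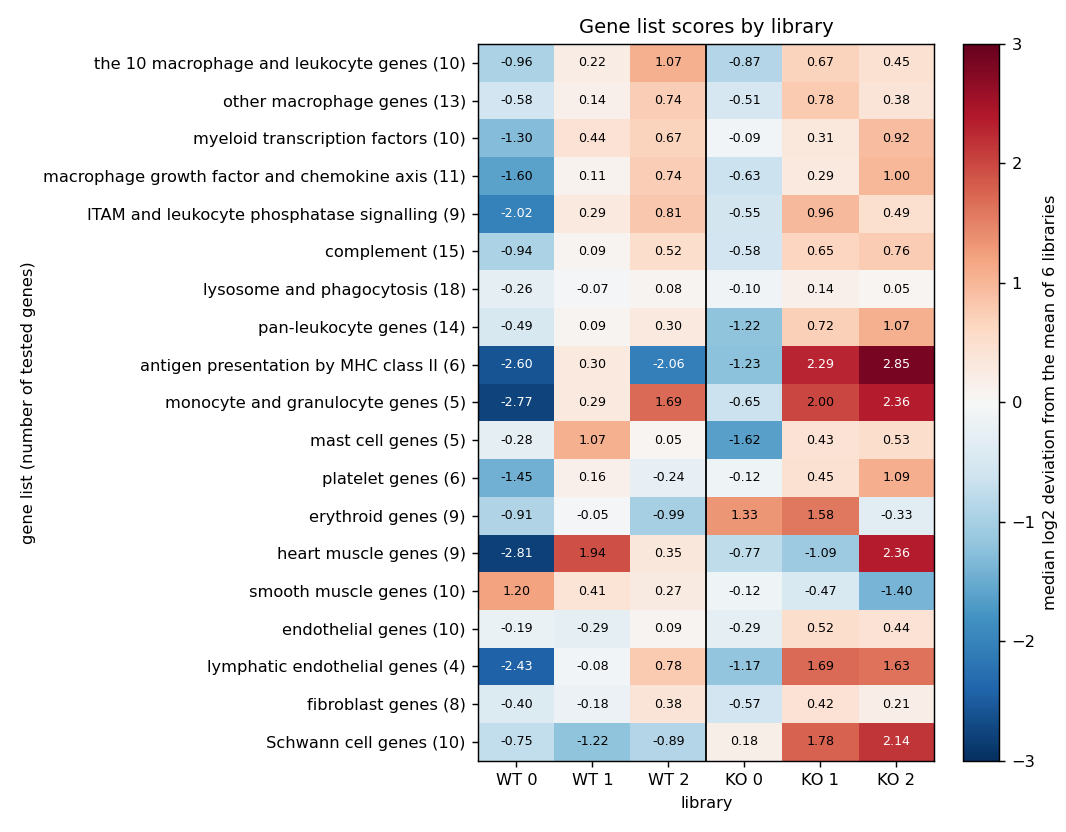
Score of each gene list (rows, with the number of tested genes) in each library (columns, WT left and KO right of the line), as the median log2 deviation of its genes from their means over 6 libraries. All lists drawn except erythroid, heart muscle, smooth muscle, and Schwann cell genes are negative in WT 0 and KO 0 and positive in KO 1 and KO 2. The pattern is thus not particular to immune lists. Erythroid genes are high in KO 0 and KO 1.

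Transcripts of the MHC class II chains, which present antigen, were highest in KO 1 and KO 2. Of 12 listed genes, 6 were tested and 0 passed the adjusted threshold. All 6 had a positive log2 fold change, as did 55.6% of all tested genes, but 3 of them (*H2-Eb1*, *Cd74*, and *Clec9a*) reached the filter only through the KO mean, so the count does not stand as support. *H2-Aa* was at 0, 3.29, and 0 FPKM in WT and at 0, 5.88, and 7.20 FPKM in KO libraries. *Cd74*, the invariant chain, was at 0, 2.51, and 0 FPKM in WT and 0, 8.73, and 7.23 FPKM in KO libraries. *H2-Eb1* was listed at 0 in all WT libraries and at 1.36, 2.36, and 4.47 FPKM in KO libraries. KO 0 was at 0 for *H2-Aa* and *Cd74*, as was WT 0, and *H2-Ab1* overlapped between the groups. *Ccr2*, the chemokine receptor of recruited monocytes, was at 0, 0.847, and 0.789 FPKM in WT and at 0.778, 3.41, and 5.21 FPKM in KO libraries (log2 fold change 2.53, SE 1.33, adjusted p = 0.641 from limma), and reached the filter only through the KO mean. *Zbtb46*, a transcription factor of dendritic and endothelial cells, was at 12.2, 8.90, and 3.15 FPKM in WT and 15.7, 22.2, and 15.6 FPKM in KO libraries (log2 fold change 1.32, SE 0.49, unadjusted p = 0.0300, adjusted p = 0.584 from limma).

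**Figure D5:**
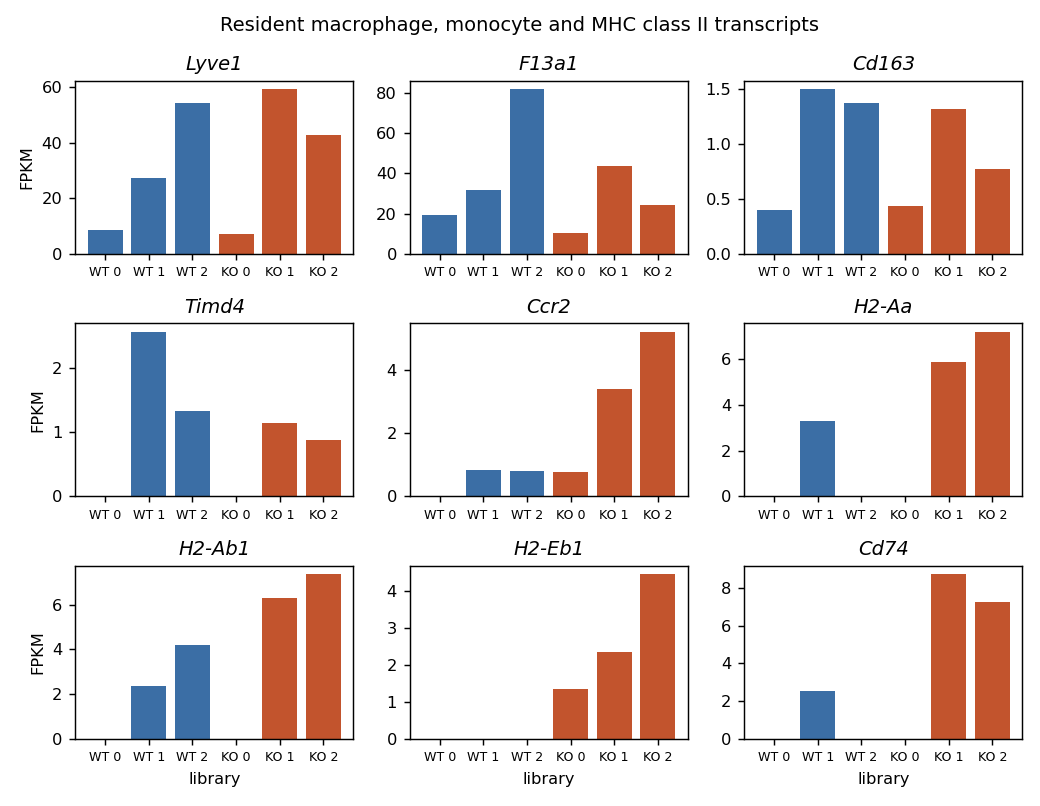
FPKM (y axes, each from 0 and on its own scale) of 4 transcripts of resident macrophages chosen from the 22 further macrophage genes (*Lyve1*, *F13a1*, *Cd163*, *Timd4*), of recruited monocytes (*Ccr2*), and of MHC class II presentation (*H2-Aa*, *H2-Ab1*, *H2-Eb1*, *Cd74*) in each library (x axes), 1 bar per library. These 4 are lowest in WT 0 and KO 0, whereas others of the list that are not drawn, among them *Cbr2*, *Folr2*, and *Mertk*, are not. The MHC class II genes are highest in KO 1 and KO 2.

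Few lymphocyte transcripts reached the filter. Of 20 lymphocyte and thymocyte genes, 8 were listed at 0 in all 6 libraries, among them the T cell gene *Cd3e*, the B cell gene *Ms4a1*, the NK cell gene *Ncr1*, and the thymocyte genes *Rag2* and *Ptcra*, and 3 reached a mean FPKM of 1. These zeros do not show absence, since *Hba-a2* was also listed at 0 in all 6 libraries beside *Hba-a1* at a mean of 7399 FPKM. The summed FPKM of the 20 genes was 0.553 to 3.54 in WT and 2.59 to 28.1 in KO libraries, with *Gzma* at 8.90 FPKM in KO 1 as the highest single value. These ranges overlap. Of the 3 tested genes, *Cd8b1* and *Gzma* reached the filter only through the KO mean, and 0 passed the adjusted threshold. Of 17 pan-leukocyte genes, 14 were tested, 10 were higher and 4 lower in KO libraries (median log2 fold change 0.41), and 0 passed the adjusted threshold. *Laptm5* was at 2.09, 6.49, and 4.79 FPKM in WT and at 2.18, 13.6, and 9.26 FPKM in KO libraries. *Cd48* was listed at 0 in all WT libraries and was at 0.850, 6.38, and 1.72 FPKM in KO libraries, and reached the filter only through the KO mean.

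Scores of lymphatic endothelial and fibroblast genes were, like that of the 10 transcripts, lowest in WT 0 and KO 0. Of 5 lymphatic endothelial genes, 4 were tested, and their score was -2.43, -0.08, and 0.78 in WT and -1.17, 1.69, and 1.63 in KO libraries, with a summed FPKM of 5.28 to 50.7 in WT and 9.81 to 96.8 in KO libraries. *Prox1*, the lineage factor of lymphatic endothelium, was at 0.654, 6.91, and 16.7 FPKM in WT and 2.28, 17.3, and 15.5 FPKM in KO libraries, while *Stab2* was listed at 0 in WT 0, WT 2, and KO 0. *Mrc1* and *Lyve1* are also expressed by that endothelium. The score of 8 fibroblast genes was -0.40, -0.18, and 0.38 in WT and -0.57, 0.42, and 0.21 in KO libraries, with a summed FPKM of 3475 to 6293 and 2838 to 5946. Smooth muscle and Schwann cell genes had other orders. The score of 10 smooth muscle genes was highest in WT 0, at 1.20, and all 10 were lower in KO libraries (median log2 fold change -1.35). Of these, 6 were at an unadjusted p under 0.05 in limma and 6 had KO wholly below WT. Over all tested genes, 4.97% were lower in KO libraries at that p and 7.84% had KO wholly below WT. Of 10 endothelial genes, 8 were higher in KO libraries (median log2 fold change 0.45), and of 10 Schwann cell genes, 9 were (median 2.26). Of the Schwann cell genes, 6 were at an unadjusted p under 0.05 in limma and 4 had KO wholly above WT. However, 4 of these 10 reached the filter only through the KO mean. Over all tested genes, 3.31% were higher in KO libraries at that p and 8.21% had KO wholly above WT. There were 0 genes past the adjusted threshold in any of these lists. The part of these cells in the levels of the macrophage transcripts was not tested. Erythroid genes (9 tested, 9 higher in KO libraries), with a score of 1.33 in KO 0, had another order. Of these 9, *Epb42* reached the filter only through the KO mean. Heart muscle genes (9 tested, 5 higher), highest in WT 1 (1.94) and KO 2 (2.36), had another order too. In both lists 0 passed the adjusted threshold. Without WT 1 and KO 2 the median log2 fold change of the 10 genes was -0.18.

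The tested genes outside these lists whose course over the 6 libraries was most like that of the 10 were *Igfbp3*, *Slco2b1*, *Glt8d2*, *Pcdhb3*, *Ptn*, *Zfp217*, *Fam124b*, *Ccne1*, *Adm*, and *Eps8*. Likeness was measured as the root-mean-square distance between the gene's log2 deviations and the median deviations of the 10 genes, and was 0.21 for *Igfbp3* and 0.26 for *Eps8*, beside a median of 0.92 over all tested genes. *Igfbp3*, which encodes an IGF-binding protein, was at 17.2, 34.2, and 55.7 FPKM in WT and at 18.8, 48.4, and 54.0 FPKM in KO libraries. *Slco2b1*, an organic anion transporter, was at 0.963, 2.89, and 4.35 FPKM in WT and 1.05, 3.94, and 4.05 FPKM in KO libraries. Of the 10 genes themselves, *C1qc* ranked 7th among all tested genes by this distance, *Csf1r* 81st, *Cx3cr1* 148th, *C1qa* 153rd, and *Mrc1* 188th. *C1qb* ranked 1500th, *Cd68* 1890th, and *Lyz2* 8376th, the last at a distance of 1.06, above the median of all tested genes, while *Ptprc* and *Tyrobp*, with their zeros in WT 2, ranked 11505th and 12631st. This distance also counts the size of the swings, and a gene of one level in all libraries would lie at 0.77. *Lyz2* had its lowest levels in WT 0 and KO 0, like the profile, but with wider swings. The profile was built from the 10 genes, so their own ranks only describe how close each lay to it.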

How the data were processed

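Bulk RNA-Seq of the DA was available for 3 WT and 3 KO libraries, grouped by their titles, with 0 columns left unmatched. The authors kept reads with base quality of at least 30 and a length of at least 45, used TopHat2 for alignment to mm10, and derived expression per gene with Cufflinks and Cuffdiff. The deposited table gives 1 FPKM for each gene in each library. Versions, gene annotation, and scaling between libraries are not given in the sources used here. FPKM hold no counts, so depth is unknown and no count test was used.

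From the deposited FPKM, log2(FPKM + 0.1) was computed, and the 12955 genes whose FPKM averaged 1 or more entered limma 3.58.1 under R 4.3.3 (mean-variance trend, two-sided, Benjamini-Hochberg over all tested genes, threshold 0.05), which was tested on simulated data. This scale understates changes between low levels above 0, whereas an exact 0 can enlarge a log2 fold change. That of *Tyrobp* was 2.76 on this scale, 1.43 with 1 added in place of 0.1, and 1.18 with exact zeros as missing. Some listed genes reached the filter through the mean of 1 group only (through KO 3 of 10 transcription factors, 2 of 9 signalling, and 2 of 14 pan-leukocyte genes), so counts and medians over lists are descriptions. Single values were compared with exact permutation tests, which cannot give a p under 0.1 here. Positions came from GENCODE vM21 on GRCm38, the assembly of mm10, and 2 listed genes were matched by an older symbol. The members, the 20 other gene lists, and the rule for named genes (all 10 members, list genes where a list is reported, and the 10 genes of most like course) were chosen with earlier results of these data known. Other pseudocounts, filters, scalings, variance models, a replicate block, and the omission of each library were tried. Taking zeros as missing and leaving out WT 1 and KO 2, both high in heart muscle transcripts, were added after the data were seen.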

Additional observations from a re-analysis of the deposited data

How the results depend on the processing

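In all 17 alternatives, none of the 10 transcripts reached an adjusted p of 0.05, and the lowest adjusted p was 0.397, for *Lyz2* with the replicate block. *Mrc1* turned to 0.020 with quantile normalization and *C1qc* to -0.19 when WT 1 and KO 2, rich in heart muscle transcripts, were left out; the cause was not tested. Leaving out each library in turn gave ranges of -0.45 to 0.68 for *Mrc1*, -0.40 to 0.64 for *C1qc*, -0.80 to 0.39 for *Cd68*, -0.89 to 0.17 for *Cx3cr1*, -1.06 to 0.028 for *C1qa*, -1.69 to 0.10 for *C1qb*, 0.019 to 0.87 for *Csf1r* (lowest without WT 0), 0.28 to 2.41 for *Lyz2*, 0.87 to 3.17 for *Ptprc*, 1.18 to 4.57 for *Tyrobp*, and -0.38 to 0.66 for the median of the 10. *Cd68*, *Cx3cr1*, and *C1qa* turned only without WT 2. The number of genes called over the whole table, 1, became 2 without the mean-variance trend, 2 without moderation, 0 with exact zeros as missing, and 3 when WT 1 and KO 2 were both omitted. Omitting a single library gave between 1 and 3. At an unadjusted p under 0.05, *Tyrobp* passed in limma without WT 1 (0.00831) and without both WT 1 and KO 2 (0.0434), and *Lyz2* with the block below.

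The numbers 0, 1, and 2 are not described as pairs, and the deviations of same-numbered libraries from their group means correlated at 0.12, -0.08, and -0.01 over the tested genes; WT 1 correlated best with KO 2 (0.14), not with its own number. The replicate block left all log2 fold changes as they were and called 1 gene. With it *Lyz2* had an unadjusted p of 0.00711 from limma. The stricter filter, at a mean FPKM of 5, removed *Cd68* and *Ptprc*. With intervals this wide, changes smaller than the spread between libraries were not detectable.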

Other observations

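Mast cell transcripts were clear in these vessels. *Cpa3*, a mast cell carboxypeptidase, was at 6.08, 12.1, and 20.4 FPKM in WT and at 1.06, 25.8, and 15.8 FPKM in KO libraries, and *Cma1*, a chymase, was at 9.37, 17.6, and 42.2 FPKM in WT and 3.64, 12.7, and 6.72 FPKM in KO libraries. *Cma1* had a log2 fold change of -1.48 (SE 0.63, unadjusted p = 0.0478, adjusted p = 0.600 from limma). Of 9 mast cell genes, 5 were tested, 4 of them lower in KO libraries, and 3 (*Tpsab1*, *Ms4a2*, *Fcer1a*) were listed at 0 in all 6 libraries, the first of which has a near-identical copy, *Tpsb2*. As with the macrophage genes, KO 0 was the lowest library for *Cpa3* and *Cma1*.

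Granulocyte transcripts varied widely. *S100a8* was at 0.313, 3.06, and 33.0 FPKM in WT and at 0, 10.2, and 6.48 FPKM in KO libraries, and *S100a9* at 0, 5.45, and 16.1 FPKM in WT and 0.208, 16.03, and 47.3 FPKM in KO libraries. *Ngp* was listed at 0 in all WT libraries and was at 1.90, 8.56, and 5.84 FPKM in KO libraries, and reached the filter only through the KO mean. Of 15 monocyte and granulocyte genes in the table, 5 were tested, 4 of them higher in KO libraries (2, *Ltf* and *Ngp*, tested only through the KO mean), and 0 passed the adjusted threshold. Of 6 platelet genes, all tested, 4 were higher in KO libraries and 0 passed the adjusted threshold. *Pf4*, which resident macrophages express as well, was at 4.64, 19.5, and 9.91 FPKM in WT and 2.11, 24.1, and 22.7 FPKM in KO libraries. Of 6 brown fat genes, *Ucp1* and *Plin1* were listed at 0 in all libraries, and the 2 tested were lower in KO libraries without passing the adjusted threshold. Of these 2, *Cidea* reached the filter only through the WT mean, so the count does not stand as support.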
